A study of Rattus norvegicus with 12 samples.

Results

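Axon guidance ligands and receptors were followed through rat cardiac fibroblasts and through cells made from them by viral delivery of Sall4 and Gata4. They were taken by gene symbol, as all rows of the count table named as a semaphorin, plexin, ephrin, Eph receptor, Slit, Robo or numbered netrin. No measured value enters this rule, but the families were chosen with earlier results of these data known. The rule gave 62 of the 32545 genes in the table. They comprised 20 semaphorins and 9 plexins, 8 ephrins and 14 Eph receptors, 3 Slits and 4 Robos, and 4 netrins.

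There were 12 libraries in 4 groups, with 3 biological replicates per group according to the design text. RCF were primary cultures of cardiac fibroblasts, wild type and untreated, which served as the parental control. GS were immortalized cells that carry overexpressed Sall4 and Gata4 and were left undifferentiated. GS_diff1 were GS cells in CMM medium, labelled as cardiomyocyte differentiation, and GS_diff2 were GS cells in CMM with EGM2, labelled as cardiomyocyte and endothelial differentiation. The 3 derived groups thus share the immortalization and both factors, and their differences from RCF cannot be split among these. The sources used here do not give whether GS is 1 clone, how old the animals were or how long each culture lasted.

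Ephrins are ligands held in the cell membrane, and they bind Eph receptor tyrosine kinases on a touching cell, so that signals can run into either cell. Slits are secreted and bind Robo receptors, netrins are secreted laminin-like proteins, and semaphorins bind plexins, in the case of most secreted semaphorins together with a neuropilin. These cues steer growing axons, and in the heart they are also known from outflow tract septation, valve and chamber formation and the separation of arteries from veins.

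Libraries held 16255682 to 23117864 counts, and the 62 genes together took 0.403 to 0.410% of the counts in RCF, 0.363 to 0.376% in GS, 0.254 to 0.256% in GS_diff1 and 0.334 to 0.341% in GS_diff2. Mitochondrial genes took 2.18 to 2.26% of counts in RCF, 0.242 to 0.246% in GS, 1.49 to 1.70% in GS_diff1 and 1.79 to 1.86% in GS_diff2, and the part of that difference in the results was not tested. Levels are given as CPM, counts as a rate that corrects for library depth with TMM factors. Sall4 had 0 counts in the RCF libraries and 237 to 255 CPM in GS, 222 to 231 in GS_diff1 and 67.5 to 72.4 in GS_diff2. Gata4 had 203 to 209.7 CPM in RCF, 588 to 603 in GS, 487 to 499.9 in GS_diff1 and 281 to 289 in GS_diff2. Both factors were thus lower in GS_diff2 than in the other derived groups, and the part of their level in the results was not tested. All 12 fibroblast markers on the list were detected in RCF, with summed levels of 41608 to 44789 CPM, against 43071 to 46365 in GS, 51075 to 52533 in GS_diff1 and 30079 to 30424 in GS_diff2, where Tcf21 was at 0. Taken one by one, 4 of the 12 were higher and 6 lower in GS than in RCF, and 3 were higher and 8 lower in GS_diff1 than in GS. In GS_diff2, 3 were higher and 7 lower than in GS, and 5 were higher and 7 lower than in RCF. For all marker counts, the shares of all tested genes higher and lower in each comparison are given in the paragraphs below. Of 8 cardiomyocyte markers, the sum was 15.95 to 17.2 CPM in RCF, 4.31 to 4.51 CPM in GS, 13.9 to 16.6 in GS_diff1 and 36.6 to 38.7 in GS_diff2, and of the 5 tested 2 were higher and 2 lower in GS than in RCF, 4 higher and none lower in GS_diff1 than in GS, and 2 higher and 2 lower in GS_diff2 than in GS. The 9 endothelial markers in the table summed to 34.1 to 38.6 CPM in RCF and 28.2 to 29.1 in GS. Their sums were 38.6 to 43.3 in GS_diff1 and 34.6 to 35.2 in GS_diff2, with Cldn5 and Emcn at 0 throughout. Of the 5 tested, 1 was higher and 1 lower in GS than in RCF, and 4 were higher and none lower in GS_diff1 than in GS. In GS_diff2, 2 were higher and 1 lower than in GS, and 1 was higher and 2 lower than in GS_diff1.

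In GS, 31 of the 52 genes that could be tested were higher than in RCF and 16 were lower (edgeR's quasi-likelihood test, Benjamini-Hochberg adjusted over all 14399 tested genes, threshold 0.05). Over all tested genes 35.0% were higher and 36.3% were lower, 71.3% in all. The median log2 difference of the 52 was 0.50, and that of all tested genes was -0.03. A 2-fold rise or more was seen for 19 of the 52 and a 2-fold fall or more for 13, where 25.9% of all tested genes passed both the test and a 2-fold change in either direction.

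In CMM medium the balance was the other way. In GS_diff1, 6 genes were higher than in GS and 32 were lower, beside 32.0% and 32.3% of all tested genes (64.3% in either direction), and the median log2 difference was -0.71 against 0.00 over all genes. With library totals in place of TMM factors 10 were higher. In GS_diff2, 15 genes were higher than in GS and 24 were lower, beside 33.3% and 33.7% of all tested genes (67.0% in either direction), with a median of -0.10. GS_diff2 against GS_diff1 gave 32 higher and 12 lower, beside 32.1% and 31.5% of all tested genes (63.7% in either direction), with a median of 0.47. Of the 32 genes lower in GS_diff1 than in GS, 17 were also lower in GS_diff2, 6 were higher there and 9 did not pass the test. The same split was not made for all tested genes. As both comparisons use the GS libraries, it cannot show whether guidance genes differ from other genes in this. These comparisons share libraries (GS in the first 3, each differentiated group in 2), so their values are set side by side and not counted as independent.

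Against RCF, 23 of the 52 were higher and 23 lower in GS_diff1, beside 38.0% and 37.4% of all tested genes (75.4% in either direction), and 28 were higher and 18 lower in GS_diff2, beside 37.1% and 35.4% (72.5% in either direction). Of the 52, 22 (42.3%) passed the test in all 4 comparisons among GS, its parent and its derivatives, beside 28.8% of all tested genes, and 23 (44.2%) passed in 3, beside 35.4%.

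**Figure D1:**
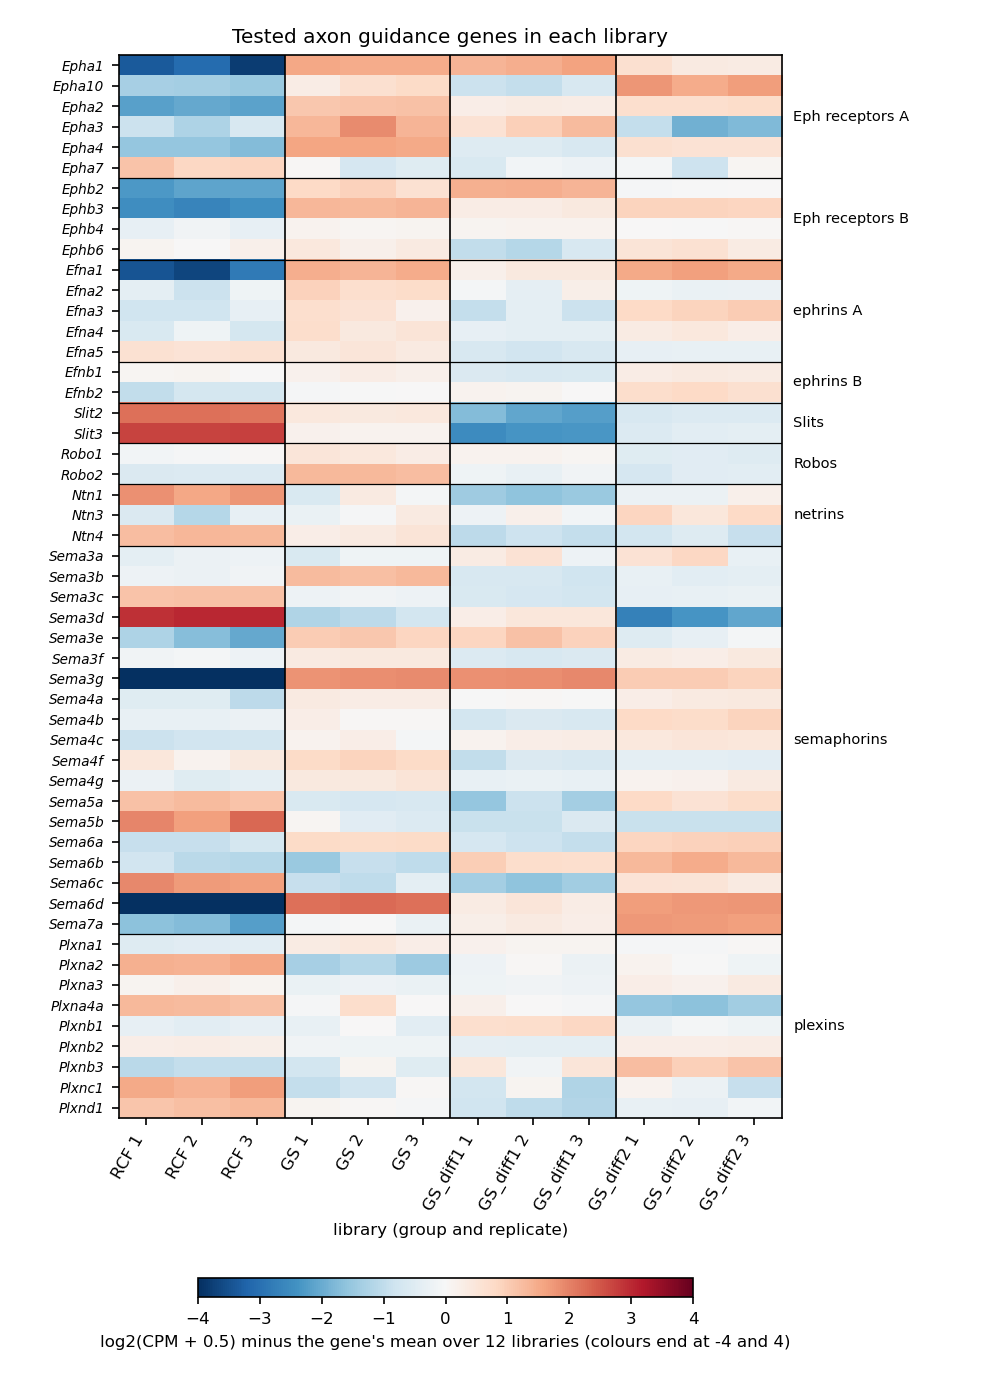
Level of each axon guidance gene with enough counts to be tested (rows, by family) in each of the 12 libraries (columns, by group), as log2(CPM + 0.5) minus that gene's mean over the libraries. Replicates of a group look alike, Eph receptors are mostly lowest in RCF, and most ligands are lower in GS_diff1 than in GS.

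Of the 62 genes, 10 were not tested because of low counts. Epha5, Epha6, Ephb1, Robo3 and Robo4 had 0 counts in all libraries, which allows up to 0.193 CPM in the shallowest library if 3 counts are taken as the limit that 0 allows, for counting error only. Epha8 had 2 counts over the 12 libraries, Ntn5 had 8, Slit1 had 10, Efnb3 had 49 and Sema4d had 84. A tested gene had at least 142 counts in all. A mean under 10 counts in at least 1 group was found for 8 tested genes (Epha3, Epha7, Epha10, Plxnb3, Plxnc1, Sema3d, Sema5b and Sema6b). Those 8 passed the count minimum through the groups where they were high, so that counts of tested genes do not speak for all 62. As these are bulk samples, fewer cells of a kind that expresses a gene and less of its RNA per cell cannot be told apart.

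Per kilobase of gene length, the only scale on which levels of different genes are compared here, Slit3 led in RCF with 205 CPM per kilobase, followed by Sema3c with 182 and Plxnb2 with 92.1. In GS, Ephb3 stood highest with 101 CPM per kilobase, followed by Sema3c with 72.1, Plxnb2 with 68.1, Epha2 with 66.4 and Sema6d with 60.5. On the same scale Ephb3 had 6.88 in RCF, Epha2 had 6.85 and Sema6d had 0.581. The leading guidance gene of the parental fibroblasts was thus a secreted Slit and that of GS an Eph receptor kinase, while Sema3c and Plxnb2 came next in both.

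RefSeq windows of 250 bases before the gene start were matched for 49 of the 62 genes (build GRCr8, which is not the build of the count table). A GATA motif, spelled as GATA with A or T before it and A or G after it and searched on both strands as the only motif, was present in 6 of the 49 (12.2%: Epha3, Efna4, Plxna2, Robo1, Sema3c and Sema6b), beside 28.5% of the 27457 genes with a window. Robo1 has 2 windows, 1 of which holds the motif. Counted by window, 6 of 50 held it, beside 27.0% of all 33469 windows of that length, and the median GC content was 62.2%, against 51.2% over all windows. Windows are shown for the 2 genes with the largest rise from RCF to GS, Sema3g (chr16:6419775-6420024, plus strand) and Sema6d (chr3:132337106-132337355, plus strand), and for Plxna2 (chr13:108691280-108691529, plus strand), a receptor that fell in GS, chosen after its values were seen because its window holds the motif. Capitals mark the motif, which begins 52 bases before the Plxna2 start, and the other windows hold none. A match describes these letters only.
Sema3g: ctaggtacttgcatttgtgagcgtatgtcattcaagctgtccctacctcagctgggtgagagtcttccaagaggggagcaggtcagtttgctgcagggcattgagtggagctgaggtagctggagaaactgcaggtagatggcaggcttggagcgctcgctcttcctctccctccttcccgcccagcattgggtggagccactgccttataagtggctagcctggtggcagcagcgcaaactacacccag
Sema6d: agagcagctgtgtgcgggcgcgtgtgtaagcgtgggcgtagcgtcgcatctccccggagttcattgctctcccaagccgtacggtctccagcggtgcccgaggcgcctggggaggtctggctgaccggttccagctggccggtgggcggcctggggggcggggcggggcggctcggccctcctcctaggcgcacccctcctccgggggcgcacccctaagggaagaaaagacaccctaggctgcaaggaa
Plxna2: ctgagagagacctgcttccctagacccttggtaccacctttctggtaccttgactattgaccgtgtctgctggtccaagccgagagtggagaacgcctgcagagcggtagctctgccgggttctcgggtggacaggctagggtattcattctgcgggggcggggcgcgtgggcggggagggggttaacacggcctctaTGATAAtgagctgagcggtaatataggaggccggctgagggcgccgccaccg

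Most tested Eph receptors were higher in the cells with Sall4 and Gata4. Of the 10 tested, 8 were higher in GS than in RCF (beside 35.0% of all tested genes), Epha7 was lower and Ephb6 did not pass the test (adjusted p = 0.124). The 10 had a median log2 difference of 3.23, against -0.03 over all genes. Epha1 (ENSRNOG00000017525, chromosome 4, 71749242 to 71763679, minus strand, Rnor_6.0), a receptor of A-type ephrins, had 0.633, 0.872 and 0.331 CPM in the 3 RCF libraries, 33.2, 31.8 and 32.1 in the 3 of GS, 29.2, 30.9 and 34.6 in those of GS_diff1, and 17.5, 14.2 and 14.2 in those of GS_diff2. All 9 derived libraries lay above all RCF libraries, and GS_diff2 lay below both GS and GS_diff1. The rise in GS was 52.8-fold (log2 5.72 ± 0.165, adjusted p = 1.43e-22, where ± is the standard error). GS_diff2 was 2.11-fold below GS (adjusted p = 7.59e-10) and 2.06-fold below GS_diff1 (adjusted p = 1.59e-09), while GS_diff1 against GS gave log2 -0.04 (adjusted p = 0.784).

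The most abundant of the family per kilobase were Ephb3 and Epha2. Ephb3 (ENSRNOG00000031801, chromosome 11, 83527962 to 83546674, minus strand), a receptor of B-type ephrins, had 28.6, 25.3 and 28.9 CPM in the 3 RCF libraries, 405, 398 and 417 in the 3 of GS, 199, 198 and 211 in those of GS_diff1, and 302, 297 and 291 in those of GS_diff2. RCF was lowest and GS highest, the differentiated groups lay between, and no groups overlapped. Ephb3 was 14.7-fold higher in GS than in RCF (log2 3.88 ± 0.0442, adjusted p = 9.65e-34), and from GS it fell 2.01-fold in GS_diff1 (adjusted p = 2.5e-20) and 1.37-fold in GS_diff2 (adjusted p = 3.31e-12). Epha2 (ENSRNOG00000009222, chromosome 5, 159845774 to 159874206, plus strand), the receptor best known for binding ephrin-A1 on epithelial and tumour cells, had 25.6, 28.4 and 26.4 CPM in the 3 RCF libraries, 252, 260.4 and 267 in the 3 of GS, 143, 148 and 146 in those of GS_diff1, and 189.7, 190.3 and 197 in those of GS_diff2. The order of groups was that of Ephb3, again with no overlap, and the rise from RCF to GS was 9.71-fold (log2 3.28 ± 0.0435, adjusted p = 4.7e-32). From GS, Epha2 fell 1.79-fold in GS_diff1 (adjusted p = 3.02e-18) and 1.35-fold in GS_diff2 (adjusted p = 1.09e-11).

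Epha4 binds ephrins of either type and repels axons in the spinal cord. Epha4 (ENSRNOG00000013213, chromosome 9, 83111222 to 83253458, minus strand) had 8.95, 8.93 and 7.8 CPM in the 3 RCF libraries, 81.8, 80.4 and 78.1 in the 3 of GS, 18.5, 18.6 and 17.2 in those of GS_diff1, and 41.8, 40.6 and 40.5 in those of GS_diff2. All groups were apart, and the GS_diff1 libraries, although above RCF, were the lowest of the derived cells. Epha4 was 9.35-fold higher in GS than in RCF (log2 3.23 ± 0.0739, adjusted p = 7.03e-26) and then 4.42-fold lower in GS_diff1 than in GS (log2 -2.14 ± 0.0683, adjusted p = 6.4e-22), the largest fall of a tested Eph receptor in that comparison. In GS_diff2 it was 1.96-fold below GS (adjusted p = 2.95e-14).

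Ephb2 (ENSRNOG00000012531, chromosome 5, 155022493 to 155204456, minus strand), another receptor of B-type ephrins, was the only tested Eph receptor that rose in CMM alone. Its levels were 11.7, 13.3 and 13.6 CPM in the 3 RCF libraries, 103, 113 and 91.9 in the 3 of GS, 160.2, 165 and 153 in those of GS_diff1, and 58.3, 59.4 and 60.8 in those of GS_diff2. GS_diff1 stood above all other libraries, and GS_diff2 lay between RCF and GS. The rise from RCF to GS was 8.02-fold (log2 3.00 ± 0.0709, adjusted p = 8.83e-23), GS_diff1 was a further 1.55-fold higher (log2 0.63 ± 0.0573, adjusted p = 3.35e-10), and GS_diff2 was 2.68-fold below GS_diff1 (log2 -1.42 ± 0.0591, adjusted p = 3.42e-17).

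Epha3 (ENSRNOG00000030285, chromosome 11, 421135 to 782954, minus strand) was a low-count gene, with 13, 6 and 15 counts in the 3 RCF libraries, 92, 112 and 68 in the 3 of GS, 49, 62 and 69 in those of GS_diff1, and 9, 0 and 1 in GS_diff2. The GS and GS_diff1 libraries were above all others, and in GS_diff2 nearly all counts came from 1 library. The rise from RCF to GS was 9.45-fold (adjusted p = 4.53e-05), and GS_diff2 was lower than GS (log2 -4.87 ± 0.625, adjusted p = 3.53e-06) and lower than GS_diff1 (log2 -4.20 ± 0.63, adjusted p = 2.16e-05). The size of these falls rests on single libraries: against GS it was log2 -7.38 without GS_diff2 replicate 1 and -4.24 without GS_diff2 replicate 2, and against GS_diff1 it was -6.70 and -3.56.

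The remaining tested Eph receptors were lower in level or moved less. Ephb4, the receptor of ephrin-B2 that marks veins, had 94.4 ± 7.6 CPM in RCF (mean ± SD, n = 3), 121 ± 1.82 in GS, 124 ± 1.12 in GS_diff1 and 115 ± 2.34 in GS_diff2. It was 1.29-fold higher in GS than in RCF (adjusted p = 2.63e-08). Ephb6, a family member without kinase activity, had 14 ± 0.862, 16.1 ± 1.26, 6.66 ± 1.3 and 18.2 ± 1.7 CPM in the same order, and was 2.43-fold lower in GS_diff1 than in GS (adjusted p = 4.91e-10). Epha10, also a kinase-dead receptor, had 0.139 ± 0.0393, 1.99 ± 0.388, 0.453 ± 0.115 and 4.68 ± 0.519 CPM, so that it stood highest in GS_diff2. Counts of Epha10 in RCF were only 4, 3 and 2. Epha7 went against the family, with 1.38 ± 0.228 CPM in RCF and 0.271 ± 0.206 in GS, a 4.8-fold fall (adjusted p = 0.00133). It had 39, 24 and 27 counts in RCF and 11, 2 and 3 in GS. Epha7 passed the count minimum through RCF, so that a fall was the likely direction of any call against RCF.

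Markers of epithelial cells rose from RCF to GS, as most Eph receptors did, but moved otherwise than the Eph receptors in GS_diff1. The 6 listed genes (Cdh1, Epcam, Krt8, Krt18, Krt19 and Cldn6) summed to 1.06 to 1.90 CPM in RCF, 693 to 719 in GS, 2361 to 2382 in GS_diff1 and 740.0 to 759 in GS_diff2. All 6 were higher in GS than in RCF, and Krt18 and Cldn6 were at 0 in RCF. In GS_diff1 against GS, 5 were higher and 1 lower. Of the 10 tested Eph receptors, 1 was higher and 5 were lower there, beside 32.0% and 32.3% of all tested genes. In GS_diff2 against GS, 2 markers were higher and 3 lower. Of the 10 Eph receptors, 1 was higher and 6 were lower there, beside 33.3% and 33.7% of all tested genes. In GS_diff2 against GS_diff1 all 6 markers were lower. Of the 10 Eph receptors, 5 were higher and 4 were lower there, beside 32.1% and 31.5% of all tested genes. The part of such cells in the Eph receptor levels was not tested.

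Most ephrins were also higher in GS than in RCF, 6 of the 7 tested beside 35.0% of all tested genes, and none was lower. In GS_diff1, 6 of 7 were lower than in GS, beside 32.3% of all tested genes, and none was higher. In GS_diff2, 6 of 7 were higher than in GS_diff1, beside 32.1% of all tested genes, and none was lower. Efna1 (ENSRNOG00000020573, chromosome 2, 188588796 to 188596222, minus strand), the ephrin-A1 ligand of Epha2, had 0.844, 0.667 and 1.56 CPM in the 3 RCF libraries, 40.2, 37.4 and 41.1 in the 3 of GS, 16.5, 19 and 18.7 in those of GS_diff1, and 41.3, 45 and 42 in those of GS_diff2. GS_diff2 lay just above GS, GS_diff1 lay below both, and RCF lay below all others. The rise from RCF to GS was 38.3-fold (log2 5.26 ± 0.145, adjusted p = 2.88e-22), the fall from GS to GS_diff1 was 2.19-fold (log2 -1.13 ± 0.101, adjusted p = 1.08e-10), and GS_diff2 was 2.37-fold above GS_diff1 (log2 1.25 ± 0.09997, adjusted p = 1.28e-11). GS_diff2 against GS did not pass the test (log2 0.11, adjusted p = 0.3).

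Efna1, Efna3 and Efna4 are neighbours on chromosome 2, with 41.6 kb between the first pair and 10.7 kb between the second in Rnor_6.0. Efna3 (ENSRNOG00000057322, chromosome 2, 188637852 to 188645196, minus strand) had 1.44, 1.44 and 2.18 CPM in the 3 RCF libraries, 4.77, 4.51 and 3.22 in the 3 of GS, 1.24, 2.02 and 1.33 in those of GS_diff1, and 5.24, 5.69 and 6.21 in those of GS_diff2. GS_diff2 was above the other groups, and RCF and GS_diff1 overlapped. Efna3 was 2.48-fold higher in GS than in RCF (adjusted p = 5.06e-05), 2.73-fold lower in GS_diff1 than in GS (adjusted p = 1.98e-05), and 3.72-fold higher in GS_diff2 than in GS_diff1 (log2 1.90 ± 0.262, adjusted p = 2.35e-07). Efna4 had 6.75 ± 1.46, 14.2 ± 1.62, 7.28 ± 0.241 and 12.2 ± 0.699 CPM in RCF, GS, GS_diff1 and GS_diff2. All 3 neighbours were thus higher in GS than in RCF and lower in GS_diff1 than in GS, and the fold of the first rise ranged from 2.1 for Efna4 to that of Efna1. Efna2, on chromosome 7, was called in the same directions, so the pattern was not particular to these neighbours.

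Of the transmembrane ephrins, Efnb2, which marks arteries, was highest in GS_diff2. It had 29.8 ± 3.39, 51.2 ± 1.46, 55 ± 2.31 and 85.9 ± 4.83 CPM in RCF, GS, GS_diff1 and GS_diff2. GS was 1.72-fold above RCF (adjusted p = 2.2e-11) and GS_diff2 was 1.68-fold above GS (adjusted p = 1.8e-11), while GS_diff1 against GS did not pass the test (log2 0.10, adjusted p = 0.17). Efnb1 had 72.5 ± 2.44, 80.7 ± 3.57, 45.3 ± 0.913 and 87.4 ± 1.68 CPM, with a 1.78-fold fall from GS to GS_diff1 (adjusted p = 6.59e-15). Its difference between GS and RCF (log2 0.15, adjusted p = 0.00636) did not pass with library totals in place of TMM factors (log2 0.05, adjusted p = 0.326). Efna5 went from 13.6 ± 0.435 and 11.9 ± 0.509 CPM in RCF and GS to 5.33 ± 0.256 in GS_diff1 and 7.05 ± 0.0472 in GS_diff2. Efna2 had 1.4 ± 0.442, 4.0 ± 0.442, 2.02 ± 0.519 and 1.73 ± 0.0759 CPM in the 4 groups. It was 2.85-fold higher in GS than in RCF (adjusted p = 4.48e-05), and 1.99-fold lower in GS_diff1 (adjusted p = 0.00383) and 2.31-fold lower in GS_diff2 than in GS (adjusted p = 0.00061).

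**Figure D2:**
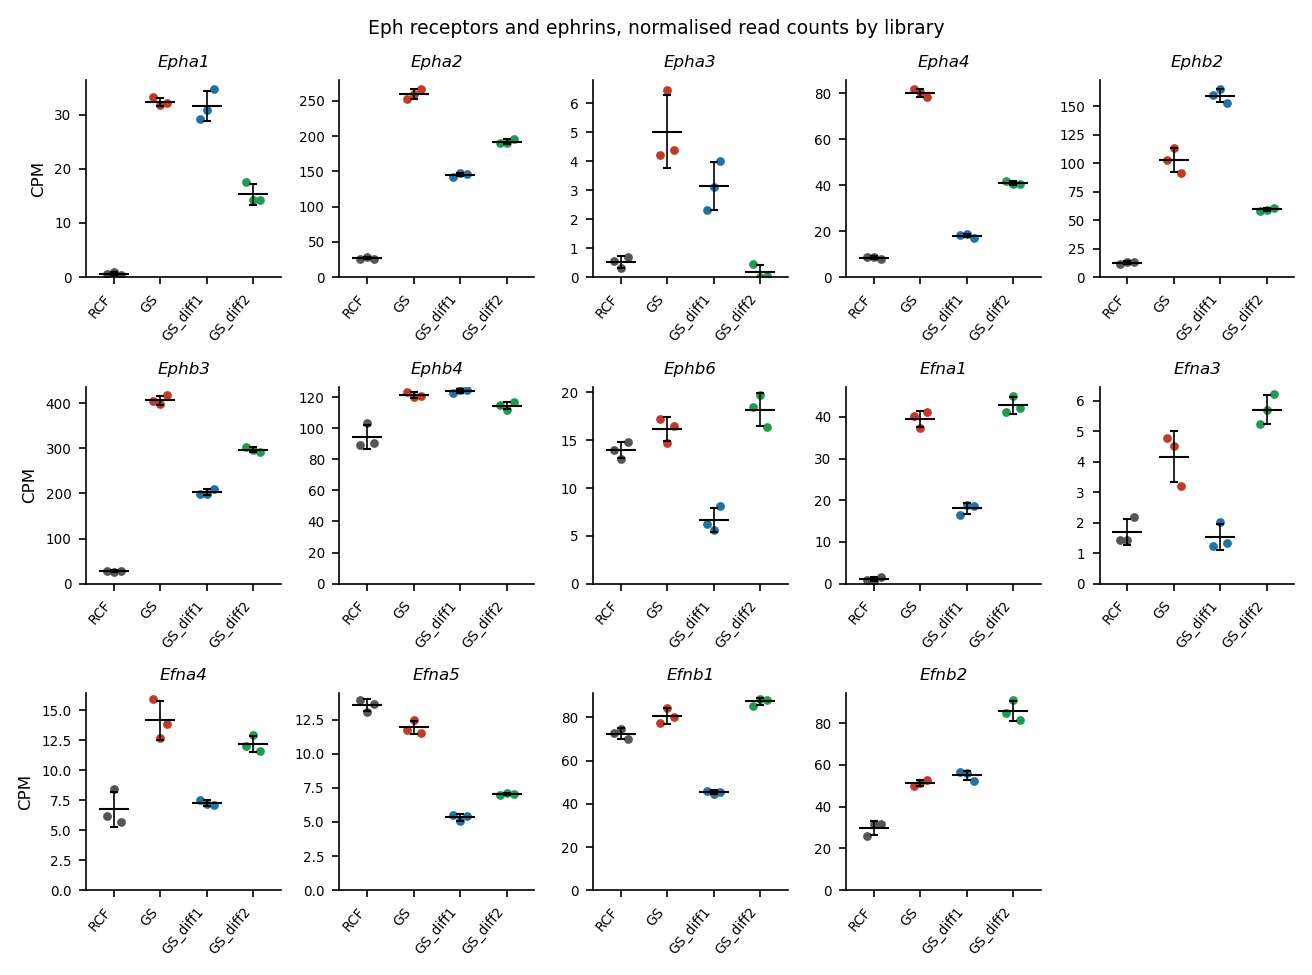
CPM (vertical axes, linear from 0, scaled per gene) of 8 Eph receptors and 6 ephrins in the 12 libraries, grouped as RCF, GS, GS_diff1 and GS_diff2. Points are libraries, and bars are the group mean ± SD. Epha1 and Efna1 lie near 1 CPM in RCF and above 14 CPM in all other libraries, while Ephb4 differs little among groups.

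Slits, the secreted ligands, and Robos, their receptors, moved in opposite directions from RCF to GS. Both tested Slits were lower in GS and both tested Robos were higher, beside 36.3% and 35.0% of all tested genes. Slit3 (ENSRNOG00000007377, chromosome 10, 20320878 to 20518518, plus strand), the guidance gene with the highest level per kilobase in RCF, had 27791, 22873 and 25162 counts in the 3 RCF libraries, 4377, 3390 and 3057 in the 3 of GS, 651, 688 and 615 in those of GS_diff1, and 2346, 3040 and 2597 in GS_diff2. The scaled levels were 1173, 1173 and 1190.1 CPM in the 3 RCF libraries, 201, 196 and 197 in the 3 of GS, 30.9, 34.7 and 35.6 in those of GS_diff1, and 122, 133 and 136 in those of GS_diff2. RCF libraries were the highest, GS_diff1 libraries the lowest, and no groups overlapped. The level of Slit3 in GS was 5.96-fold below that in RCF (log2 -2.57 ± 0.0389, adjusted p = 2.42e-28), a further 5.87-fold lower in GS_diff1 than in GS (log2 -2.55 ± 0.0443, adjusted p = 1.28e-26), and 35-fold lower in GS_diff1 than in RCF (adjusted p = 9.27e-34). The fall in GS_diff2 from GS was 1.52-fold (log2 -0.60 ± 0.039, adjusted p = 1.17e-13), so that GS_diff2 stood 3.86-fold above GS_diff1 (log2 1.95 ± 0.0445, adjusted p = 6.72e-24).

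Slit2 (ENSRNOG00000003840, chromosome 14, 66831848 to 67170361, minus strand), the best studied axon repellent of the family, kept the same order of groups at a lower level. It had 116, 116 and 109 CPM in the 3 RCF libraries, 33.4, 32.1 and 33.1 in the 3 of GS, 6.99, 5.44 and 4.92 in those of GS_diff1, and 15.8, 16.6 and 16.6 in those of GS_diff2. The groups did not overlap. Slit2 fell 3.45-fold from RCF to GS (log2 -1.79 ± 0.0689, adjusted p = 4.43e-20), 5.64-fold from GS to GS_diff1 (log2 -2.49 ± 0.0885, adjusted p = 8.89e-21) and 2.01-fold from GS to GS_diff2 (log2 -1.01 ± 0.0763, adjusted p = 8.57e-13).

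Robo2 (ENSRNOG00000029598, chromosome 11, 11062790 to 11585765, minus strand) had 20.1, 20.9 and 20.8 CPM in the 3 RCF libraries, 75.3, 76.1 and 73 in the 3 of GS, 27.2, 25.1 and 27.8 in those of GS_diff1, and 19.2, 22.1 and 22.6 in those of GS_diff2. GS was highest, and GS_diff1 lay above RCF and GS_diff2, which overlapped. It was 3.63-fold higher in GS than in RCF (log2 1.86 ± 0.0705, adjusted p = 2.82e-20), then 2.8-fold lower in GS_diff1 (log2 -1.49 ± 0.0694, adjusted p = 8.76e-18) and 3.52-fold lower in GS_diff2 than in GS (log2 -1.81 ± 0.0705, adjusted p = 7.24e-20). GS_diff2 against RCF gave log2 0.05 ± 0.074 (adjusted p = 0.573). Robo1, which lies 0.919 Mb from Robo2 on chromosome 11, had 64.4 ± 3.77, 87.8 ± 5.23, 71.7 ± 2.31 and 47.2 ± 0.783 CPM in RCF, GS, GS_diff1 and GS_diff2. It rose 1.36-fold from RCF to GS (adjusted p = 1.48e-08) and was 1.86-fold lower in GS_diff2 than in GS (adjusted p = 6.64e-15). Unlike the Slits, both Robos were lower in GS_diff2 than in GS_diff1.

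Among the netrins, Ntn1 and Ntn4 fell and Ntn3 was near the limit of what could be called. Ntn1, the founding netrin and an attractant of commissural axons, had 12.7 ± 1.2, 3.38 ± 1.29, 0.911 ± 0.097 and 3.32 ± 0.739 CPM in RCF, GS, GS_diff1 and GS_diff2, a 3.77-fold fall from RCF to GS (adjusted p = 1.3e-08) and a further 3.67-fold fall to GS_diff1 (adjusted p = 3.44e-07). Ntn4, a netrin of basement membranes, had 44 ± 1.22, 23.3 ± 2.12, 9.09 ± 0.787 and 10.8 ± 1.58 CPM, and fell 1.89-fold (adjusted p = 5.41e-10) and then 2.56-fold (adjusted p = 1.2e-12). Ntn3 (ENSRNOG00000006970, chromosome 10, 13577725 to 13580821, minus strand) had 1.86, 1.08 and 2.32 CPM in the 3 RCF libraries, 2.43, 2.89 and 3.99 in the 3 of GS, 2.52, 3.53 and 2.78 in those of GS_diff1, and 5.81, 4.33 and 5.53 in those of GS_diff2. GS_diff2 lay above the other groups, and GS and GS_diff1 overlapped. It was 1.75-fold higher in GS than in RCF (log2 0.81 ± 0.277, adjusted p = 0.0104) and 1.69-fold higher in GS_diff2 than in GS (log2 0.76 ± 0.265, adjusted p = 0.0132). The first call ended without RCF replicate 2 (log2 0.56, adjusted p = 0.0808) or GS replicate 3 (log2 0.60, adjusted p = 0.0833), and the second without GS replicate 1 (log2 0.60, adjusted p = 0.082) or GS_diff2 replicate 1 (log2 0.67, adjusted p = 0.0536).

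**Figure D3:**
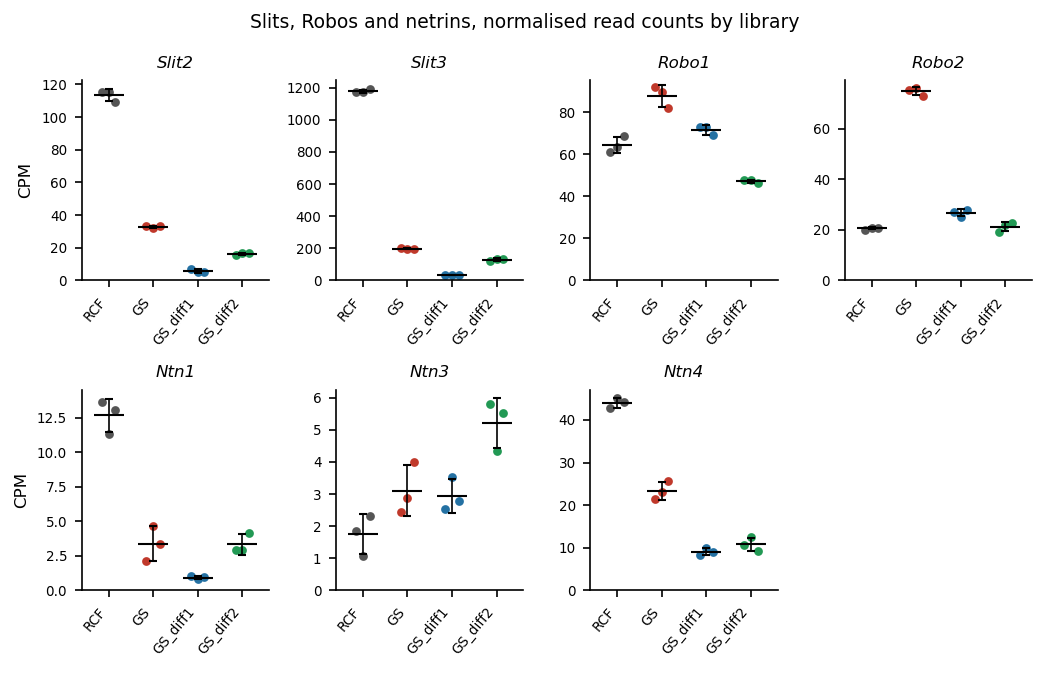
CPM (vertical axes, linear from 0, scaled per gene) of Slit2, Slit3, Robo1, Robo2, Ntn1, Ntn3 and Ntn4 in the 12 libraries, grouped as RCF, GS, GS_diff1 and GS_diff2. Points are libraries, and bars are the group mean ± SD. Slit2 and Slit3 fall from RCF to GS and again to GS_diff1, and Robo2 is highest in the 3 GS libraries.

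Semaphorins held both the largest rises and the largest fall of all tested guidance genes from RCF to GS. Of the 19 tested, 12 were higher in GS and 5 were lower, beside 35.0% and 36.3% of all tested genes. The secreted Sema3g (ENSRNOG00000018952, chromosome 16, 7303578 to 7315390, plus strand) had 17, 20 and 25 counts in the RCF libraries, and its levels were 0.718, 1.03 and 1.18 CPM in the 3 RCF libraries, 130.0, 136 and 140.2 in the 3 of GS, 133, 138 and 143 in those of GS_diff1, and 75.7, 76.4 and 69.6 in those of GS_diff2. All derived libraries were far above RCF, GS and GS_diff1 overlapped, and GS_diff2 was lower than both. The rise from RCF to GS was 139-fold (log2 7.12 ± 0.0917, adjusted p = 2.38e-32). GS_diff2 was 1.83-fold below GS (log2 -0.87 ± 0.0506, adjusted p = 1.54e-15), and GS_diff1 against GS did not pass the test (log2 0.03, adjusted p = 0.644).

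The membrane-bound Sema6d (ENSRNOG00000004812, chromosome 3, 116899878 to 116958050, plus strand), a ligand of Plxna1 in heart development, had 4.05, 3.13 and 3.59 CPM in the 3 RCF libraries, 368, 386 and 368 in the 3 of GS, 101, 111 and 98.8 in those of GS_diff1, and 254, 265 and 273 in those of GS_diff2. GS was highest, GS_diff1 lowest of the derived groups, and no groups overlapped. Sema6d was 103-fold higher in GS than in RCF (log2 6.69 ± 0.065, adjusted p = 1.74e-34), 3.6-fold lower in GS_diff1 than in GS (log2 -1.85 ± 0.0432, adjusted p = 1.16e-24) and 1.41-fold lower in GS_diff2 than in GS (log2 -0.50 ± 0.0408, adjusted p = 7.93e-12). Both of these semaphorins thus went from a few CPM or less to over 100 CPM.

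Sema3c, Sema3e, Sema3a and Sema3d, all secreted, lie in this order on chromosome 4 within gaps of 2.78, 0.584 and 0.828 Mb, and they moved in different directions from RCF to GS. Sema3c (ENSRNOG00000006526, chromosome 4, 14318274 to 14490446, minus strand), known from outflow tract septation, had 917, 931 and 929 CPM in the 3 RCF libraries, 358, 380.0 and 361 in the 3 of GS, 274, 259 and 249 in those of GS_diff1, and 333, 338 and 346 in those of GS_diff2. RCF was highest and GS_diff1 lowest, with no overlap of groups. Its level in GS was 2.53-fold below that in RCF (log2 -1.34 ± 0.0324, adjusted p = 2.97e-25), and GS_diff1 was 1.41-fold below GS (adjusted p = 4.82e-14). The small difference of GS_diff2 from GS (log2 -0.11, adjusted p = 0.00361) did not pass with library totals (log2 -0.03, adjusted p = 0.491).

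Sema3d (ENSRNOG00000007202, chromosome 4, 19224310 to 19413484, minus strand), known from pulmonary vein patterning, had 29.1, 31.2 and 31.2 CPM in the 3 RCF libraries, 1.19, 1.39 and 1.87 in the 3 of GS, 4.23, 4.89 and 4.87 in those of GS_diff1, and 0.104, 0.263 and 0.418 in those of GS_diff2. RCF was highest, GS_diff1 stood above GS, and GS_diff2 was lowest, again without overlap. Sema3d fell 20.8-fold from RCF to GS (log2 -4.38 ± 0.193, adjusted p = 1.27e-18). It was 3.18-fold higher in GS_diff1 than in GS (log2 1.67 ± 0.196, adjusted p = 1.23e-08) and 17.4-fold lower in GS_diff2 than in GS_diff1 (log2 -4.12 ± 0.252, adjusted p = 6.26e-15). GS_diff2 was 5.49-fold below GS (log2 -2.46 ± 0.288, adjusted p = 1.03e-08), so that Sema3d lay above GS in CMM alone and below GS in CMM with EGM2. The GS_diff2 libraries held only 2, 6 and 8 counts of Sema3d, against 26, 24 and 29 in GS, so the size of the falls to GS_diff2 is uncertain.

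Sema3e (ENSRNOG00000006631, chromosome 4, 17272511 to 17594598, minus strand), the ligand of Plxnd1, had 2.83, 1.9 and 1.42 CPM in the 3 RCF libraries, 15.5, 16.1 and 13.8 in the 3 of GS, 13.9, 17.1 and 14.5 in those of GS_diff1, and 4.98, 5.73 and 6.89 in those of GS_diff2. GS and GS_diff1 overlapped and were highest, GS_diff2 lay between them and RCF. Sema3e rose 7.33-fold from RCF to GS (log2 2.87 ± 0.19, adjusted p = 6.42e-14) and was 2.58-fold lower in GS_diff2 than in GS (log2 -1.37 ± 0.173, adjusted p = 5.9e-08). Its receptor Plxnd1 had 38 ± 2.34, 16.6 ± 1.08, 7.93 ± 1.05 and 13.6 ± 1.14 CPM in RCF, GS, GS_diff1 and GS_diff2, a 2.28-fold fall from RCF to GS (adjusted p = 4.07e-12) while the ligand rose. Sema3a, the classic collapsing factor of growth cones, had 1.23 ± 0.121 CPM in RCF and 1.2 ± 0.288 in GS (log2 -0.05, adjusted p = 0.92).

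Sema3b (ENSRNOG00000016512, chromosome 8, 116354073 to 116361343, minus strand) and Sema3f lie 76.4 kb apart on chromosome 8. Sema3b had 19.2, 19.1 and 20.4 CPM in the 3 RCF libraries, 55.1, 52.7 and 56.2 in the 3 of GS, 14.1, 14.1 and 12.6 in those of GS_diff1, and 18.2, 16.5 and 17 in those of GS_diff2. GS was highest and apart from all other groups, and GS_diff1 was lowest. The rise from RCF to GS was 2.79-fold (log2 1.48 ± 0.0765, adjusted p = 7.3e-17), and the falls from GS were 4.01-fold in GS_diff1 (log2 -2.0 ± 0.0796, adjusted p = 1.61e-19) and 3.17-fold in GS_diff2 (log2 -1.67 ± 0.0776, adjusted p = 6.86e-18). Sema3f had 86 ± 3.25, 123 ± 1.45, 63.3 ± 2.1 and 119.9 ± 5.26 CPM, with a 1.43-fold rise to GS (adjusted p = 1.43e-11) and a 1.94-fold fall from GS to GS_diff1 (adjusted p = 1.53e-17). GS_diff2 against GS did not pass for Sema3f (log2 -0.03, adjusted p = 0.496).

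Sema6c, Sema5a, Sema7a and Sema6a, all membrane semaphorins, were higher in GS_diff2 than in GS_diff1. Sema6c (ENSRNOG00000021101, chromosome 2, 196334626 to 196344008, plus strand) had 15.7, 13.5 and 13.1 CPM in the 3 RCF libraries, 1.79, 1.62 and 2.83 in the 3 of GS, 1.19, 0.907 and 1.16 in those of GS_diff1, and 5.86, 5.73 and 5.01 in those of GS_diff2. RCF was highest, GS_diff2 next, and GS_diff1 lowest, with no overlap. It fell 6.83-fold from RCF to GS (log2 -2.77 ± 0.207, adjusted p = 5.05e-13) and was 2.68-fold higher in GS_diff2 than in GS (log2 1.42 ± 0.206, adjusted p = 5.19e-07) and 5.08-fold higher than in GS_diff1 (log2 2.35 ± 0.22, adjusted p = 1.11e-10). Sema5a (ENSRNOG00000011977, chromosome 2, 85377318 to 85808970, plus strand) had 21.9, 23.2 and 21.1 CPM in the 3 RCF libraries, 5.92, 5.67 and 5.86 in the 3 of GS, 2.85, 4.94 and 3.36 in those of GS_diff1, and 16.7, 14.2 and 16 in those of GS_diff2. Its groups came in the same order as those of Sema6c. It fell 3.79-fold from RCF to GS (log2 -1.92 ± 0.144, adjusted p = 5.97e-13) and was 2.68-fold higher in GS_diff2 than in GS (log2 1.42 ± 0.145, adjusted p = 5.54e-10).

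Sema7a (ENSRNOG00000007687, chromosome 8, 62723788 to 62745868, plus strand), a semaphorin held in the membrane by a lipid anchor, had 4.35, 4.05 and 2.74 CPM in the 3 RCF libraries, 13.7, 14.5 and 12.1 in the 3 of GS, 17, 18.7 and 17.6 in those of GS_diff1, and 49.6, 48.7 and 45.9 in those of GS_diff2. The groups did not overlap, with RCF lowest and GS_diff2 highest. The rises were 3.6-fold from RCF to GS (log2 1.85 ± 0.123, adjusted p = 3.44e-14), 1.32-fold from GS to GS_diff1 (log2 0.40 ± 0.107, adjusted p = 0.00151) and 3.58-fold from GS to GS_diff2 (log2 1.84 ± 0.104, adjusted p = 7.99e-16). Sema6a (ENSRNOG00000004033, chromosome 18, 41333551 to 41389510, minus strand), a ligand of Plxna2 and Plxna4, had 9.12, 9.08 and 10.6 CPM in the 3 RCF libraries, 30.5, 30.1 and 30.1 in the 3 of GS, 10.9, 9.68 and 8.92 in those of GS_diff1, and 32.6, 34.3 and 34.6 in those of GS_diff2. GS and GS_diff2 were high, RCF and GS_diff1 were low and overlapped. Sema6a was 3.15-fold higher in GS than in RCF (adjusted p = 5.59e-16), 3.07-fold lower in GS_diff1 than in GS (adjusted p = 1.59e-15) and 3.43-fold higher in GS_diff2 than in GS_diff1 (log2 1.78 ± 0.0928, adjusted p = 1.35e-16).

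The other tested semaphorins had group means of at most 51.1 CPM. Sema4b reached 41.6 ± 2.01 CPM in GS_diff2 from 14.8 ± 0.876 in GS_diff1 (2.81-fold, adjusted p = 6.66e-16), and Sema4c rose from 21.5 ± 1.07 CPM in RCF to 40.2 ± 4.75 in GS (adjusted p = 8.68e-12). Sema6b was near 0.385 CPM in GS and rose to 2.87 ± 0.399 in GS_diff1 (adjusted p = 4.21e-08) and 4.43 ± 0.373 in GS_diff2 (adjusted p = 7.04e-10). It had 4, 9 and 7 counts in GS, 70, 53 and 45 in GS_diff1, and 81, 111 and 81 in GS_diff2. Sema6b passed the count minimum through the differentiated groups, so that a rise was the likely direction of any call against GS. Sema5b had 72, 46 and 84 counts in the 3 RCF libraries, 10, 3 and 2 in the 3 of GS, 0, 0 and 2 in those of GS_diff1, and 0, 0 and 0 in GS_diff2. It was thus at 0 in every GS_diff2 library, which is at least 21.1-fold lower than in RCF when 3 counts per library are taken as the floor.

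**Figure D4:**
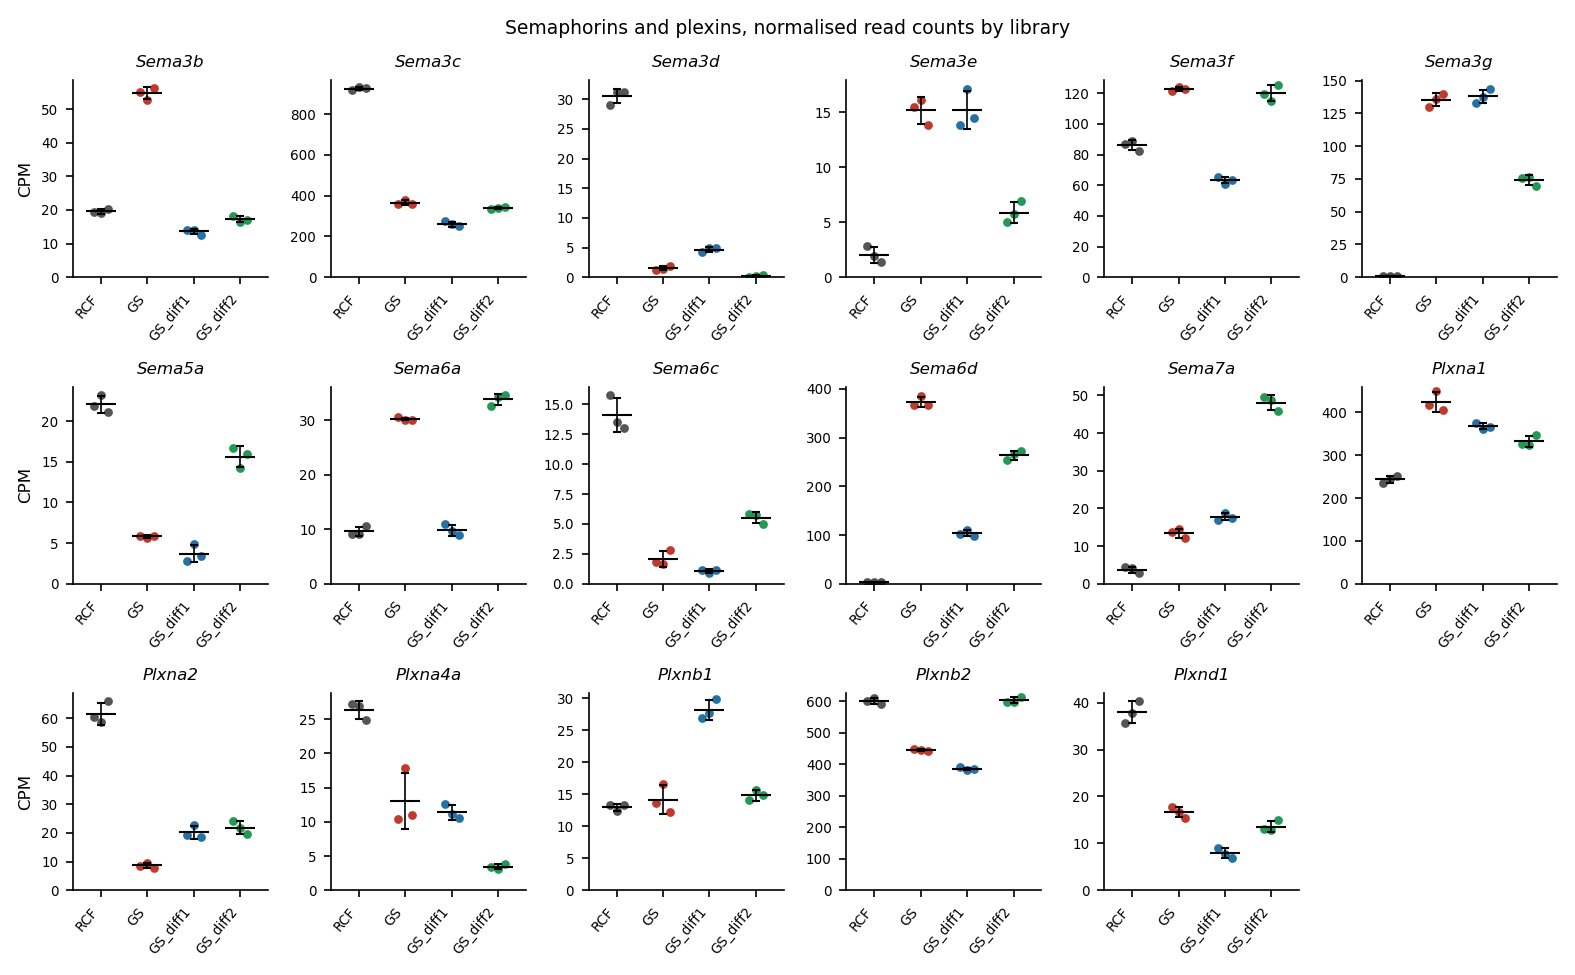
CPM (vertical axes, linear from 0, scaled per gene) of 11 semaphorins and 6 plexins in the 12 libraries, grouped as RCF, GS, GS_diff1 and GS_diff2. Points are libraries, and bars are the group mean ± SD. Sema3g and Sema6d are near 0 in RCF and high in GS, Sema3d and Plxna2 are highest in RCF, and Plxnb1 is highest in GS_diff1.

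Plexins, the semaphorin receptors, were lower in GS than in RCF in 6 of 9 cases and higher in 2, beside 36.3% and 35.0% of all tested genes. Plxna2 (ENSRNOG00000007324, chromosome 13, 113373578 to 113571648, plus strand) had 60.4, 58.5 and 65.9 CPM in the 3 RCF libraries, 8.49, 9.66 and 7.79 in the 3 of GS, 19.3, 22.8 and 18.7 in those of GS_diff1, and 24.2, 21.8 and 19.6 in those of GS_diff2. RCF was far above the other groups, GS was lowest, and GS_diff1 and GS_diff2 overlapped between them. Plxna2 fell 7.12-fold from RCF to GS (log2 -2.83 ± 0.0983, adjusted p = 3.05e-21) and was 2.34-fold higher in GS_diff1 (log2 1.23 ± 0.102, adjusted p = 8.31e-12) and 2.53-fold higher in GS_diff2 than in GS (log2 1.34 ± 0.101, adjusted p = 8.8e-13). The gene listed as Plxna4a (ENSRNOG00000013072, chromosome 4, 59445767 to 59809321, minus strand) had 27.3, 26.9 and 24.9 CPM in the 3 RCF libraries, 10.5, 17.8 and 11 in the 3 of GS, 12.6, 11.1 and 10.5 in those of GS_diff1, and 3.42, 3.15 and 3.81 in those of GS_diff2. RCF was highest and GS_diff2 lowest, and GS and GS_diff1 overlapped, with the GS replicate 2 library above the other GS libraries. It fell 2.02-fold from RCF to GS (log2 -1.01 ± 0.149, adjusted p = 2.15e-06) and 3.78-fold from GS to GS_diff2 (log2 -1.92 ± 0.168, adjusted p = 6.06e-10).

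Plxnb1 (ENSRNOG00000029510, chromosome 8, 117836701 to 117856689, plus strand), a receptor of Sema4d, had 13.3, 12.4 and 13.3 CPM in the 3 RCF libraries, 13.6, 16.7 and 12.3 in the 3 of GS, 27, 27.7 and 29.95 in those of GS_diff1, and 14, 15.7 and 14.8 in those of GS_diff2. GS_diff1 was apart on the high side, and RCF and GS_diff2 each overlapped GS. It was 1.99-fold higher in GS_diff1 than in GS (log2 0.99 ± 0.103, adjusted p = 1.08e-09) and 1.9-fold lower in GS_diff2 than in GS_diff1 (log2 -0.92 ± 0.102, adjusted p = 3.69e-09), while its ligand Sema4d stayed under the count minimum. Plxnb2 (ENSRNOG00000007133, chromosome 7, 130135464 to 130151880, minus strand), among the most abundant guidance genes per kilobase, had 602, 612 and 592 CPM in the 3 RCF libraries, 449, 446 and 442 in the 3 of GS, 390.1, 382 and 384 in those of GS_diff1, and 599, 598 and 615 in those of GS_diff2. RCF and GS_diff2 were high and overlapped, GS was lower and GS_diff1 lowest. The fall from RCF to GS was 1.35-fold (log2 -0.43 ± 0.027, adjusted p = 7.13e-15), GS_diff2 was 1.35-fold above GS (log2 0.44 ± 0.027, adjusted p = 6.93e-15), and GS_diff2 against RCF gave log2 0.00 ± 0.0268 (adjusted p = 0.897).

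Plxna1, the receptor of Sema6d and partner of the neuropilins, was one of the 2 plexins that rose in GS. It had 244 ± 8.35, 424 ± 23.1, 367 ± 7.27 and 332 ± 13.2 CPM in RCF, GS, GS_diff1 and GS_diff2, a 1.74-fold rise from RCF to GS (log2 0.80 ± 0.0372, adjusted p = 1.95e-17). The other was Plxnb3, with 0, 1 and 1 counts in the 3 RCF libraries, 3, 11 and 4 in the 3 of GS, 20, 9 and 17 in those of GS_diff1, and 39, 35 and 35 in GS_diff2. Plxnb3 passed the count minimum through the differentiated groups, and with so few counts in RCF and GS its rise in GS is uncertain. Plxna3 had 37.2 ± 1.38, 28.4 ± 0.82, 29.7 ± 0.881 and 40.4 ± 2.64 CPM, and Plxnc1, the receptor of Sema7a, had 2.82 ± 0.329 CPM in RCF and under 0.5 CPM on average in the other groups. Plxnc1 had 66, 49 and 67 counts in RCF and 2, 3 and 11 in GS, so that it was kept for the test mainly through RCF.

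**Figure D5:**
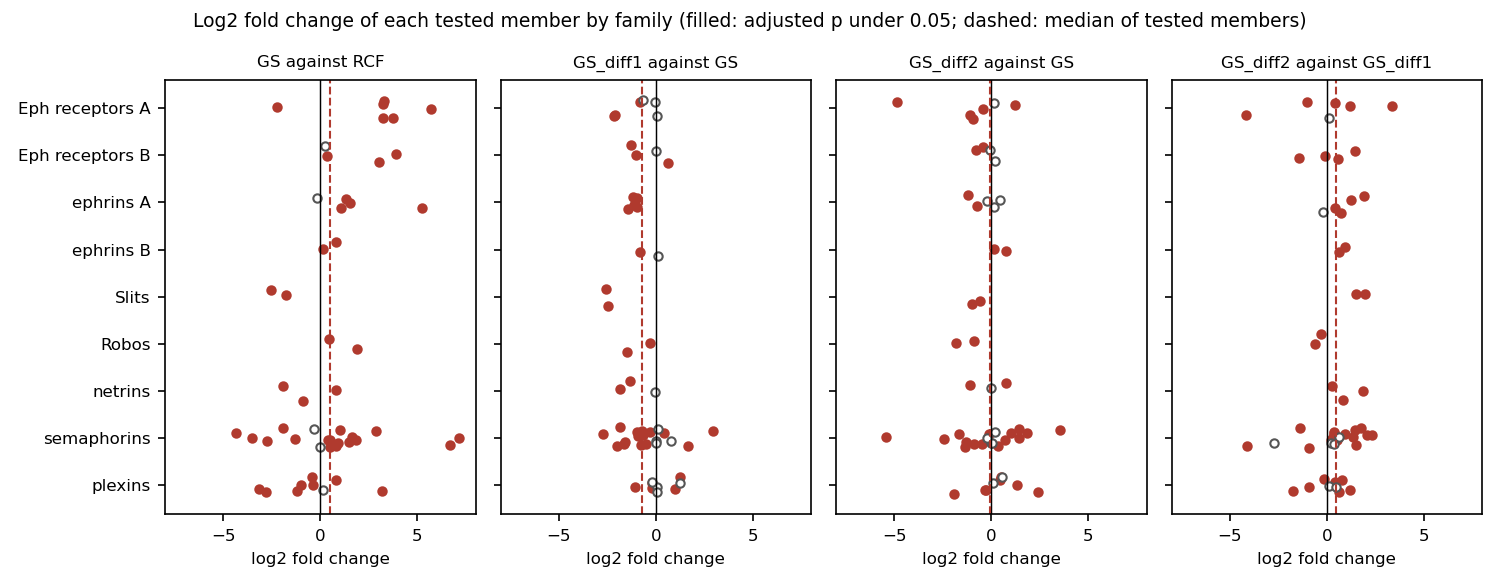
Log2 fold change of each tested guidance gene, by family, in 4 comparisons, GS over RCF, GS_diff1 over GS, GS_diff2 over GS and GS_diff2 over GS_diff1. Filled points passed an adjusted p of 0.05, open points did not, and dashed lines mark the median of the tested guidance genes, at 0.50, -0.71, -0.10 and 0.47. The fitted value of Sema5b in comparisons with GS_diff2, where it had 0 counts, depends on the prior count and is no bound.

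The pathway was also followed outside these families, through 59 listed coreceptors, other cues and intracellular effectors, of which 58 were in the table and 52 could be tested. In GS, 19 of the 52 were higher than in RCF and 25 were lower, beside 35.0% and 36.3% of all tested genes. In GS_diff1 against GS, 16 were higher and 21 lower, beside 32.0% and 32.3%. In GS_diff2, 22 were higher and 21 lower than in GS, beside 33.3% and 33.7%, and 23 were higher and 17 lower than in GS_diff1, beside 32.1% and 31.5%. Of 12 coreceptors, 8 were lower in GS_diff1 than in GS and 9 were lower in GS_diff2 than in GS, where 32.3% and 33.7% of all tested genes were lower. Of 33 effectors, 15 were higher and 9 lower in GS_diff1 than in GS, and 17 were higher and 9 lower in GS_diff2 than in GS, beside the shares of all genes given for these comparisons.

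The neuropilins, coreceptors of secreted semaphorins, moved apart from RCF to GS, and both had lower means in the differentiated groups than in GS. Nrp2 averaged 367, 711, 266 and 393 CPM in RCF, GS, GS_diff1 and GS_diff2, and fell from GS to GS_diff1 (log2 -1.42 ± 0.0333, adjusted p = 2.7e-25). Nrp1 averaged 165, 82.1, 73.4 and 34 CPM, so that it was highest in RCF and lowest in GS_diff2. The netrin receptor Dcc was at 0 in all libraries, and the netrin receptor Unc5c went from 12.4 CPM in GS to 2.79 in GS_diff2 (log2 -2.15 ± 0.162, adjusted p = 7.06e-13). Flrt3, an adhesion protein that binds Unc5 receptors and Robo1, rose from 5.12 CPM in RCF to 164 in GS (log2 5.01 ± 0.0661, adjusted p = 4.45e-32) and was 53.7 in GS_diff2. L1cam, a partner of Nrp1 on axons, rose from 0.714 to 7.78 CPM (adjusted p = 8.27e-13).

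Among other cues, the matrix protein Spon1 (F-spondin) fell from 143 CPM in RCF to 0.585 in GS (adjusted p = 5.03e-31), its relative Spon2 rose from 1.85 CPM in GS to 5.63 in GS_diff2 (adjusted p = 7.59e-07), and Ntng2 (netrin-G2) fell to 2.16 CPM in GS_diff1, against 8.65 in GS (adjusted p = 7.22e-11). Of the effectors, Rnd1, a GTPase that binds plexins, fell from 84.9 CPM in RCF to 20.9 in GS (adjusted p = 7.63e-20). Fyn, a kinase downstream of semaphorin and ephrin receptors, went from 81.1 CPM in GS to 31 in GS_diff1 and 92.5 in GS_diff2. Vav2, an exchange factor used by Eph receptors, rose in GS_diff1 to 137 CPM, against 64.5 in GS (adjusted p = 2.21e-18), and Dpysl3, of the collapsin response mediator family, rose from 97.2 CPM in GS to 241 in GS_diff2 (adjusted p = 9.01e-24).

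Many of these genes are best known from neurons, and listed markers of neural and Schwann cells were low throughout. The 9 markers summed to 66.3 to 66.5 CPM in RCF, 22.4 to 25.6 in GS, 10.6 to 13.6 in GS_diff1 and 13.8 to 14.7 in GS_diff2, with Sox10 at 0 in all derived groups and Rbfox3 at 0 in all 4. The 11 leukocyte markers summed to 54.5 to 55.5 CPM in RCF and 22.7 to 26.6 in GS, 16.5 to 17.6 in GS_diff1 and 32.2 to 34.2 in GS_diff2, with Ptprc at 0 in GS. Both sums were thus lower in GS than in RCF, as were Sema3d, Plxna2, Slit2 and Slit3. Among the neural markers, Tubb3 was lower in GS than in RCF and S100b and Gfap were higher, while of 7 leukocyte markers 6 were lower and 1 was higher. The part of such cells in the falls of the guidance genes was not tested.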

How the data were processed

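RNA from 12 rat cell cultures (RNeasy Mini kit, Ovation RNA-seq System v2, per the labels' protocols) was measured, and the deposited table gives the authors' raw read counts for each gene, as whole numbers. The submitters' processing notes name Bowtie 0.12.2 and the builds Rnor_6.0 and mm8 without roles, and the gene positions in the table are those of Rnor_6.0. No source used here names the counting program or says whether strand was used, so reads of overlapping, antisense or near-identical genes cannot be separated.

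Libraries were assigned to groups by the sample labels, and those of a group differed by 4.54 to 7.87 times the chi-square per degree of freedom that sampling gives (12 pairs). Genes were kept by filterByExpr, counts were scaled with TMM factors, and all groups entered 1 quasi-likelihood fit in edgeR 4.0.16 (limma 3.58.1, R 4.3.3) over the 12 libraries, with a biological coefficient of variation of 9.72% and 8 residual degrees of freedom. Contrasts were two-sided, adjusted by Benjamini-Hochberg over 14399 genes, with a threshold of 0.05. Scripts were tested on simulated data. Alternatives were other scalings and filters, DESeq2 1.42.0, limma-voom, the 2 compared groups alone, the replicate block, and each library left out.

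The gene families, lists and rules were chosen with earlier results of these data known. Levels of every library are given for the 5 largest rises and 5 largest falls per comparison among GS, its parent and its derivatives (called, no overlap of libraries, at least 5 CPM in the higher group), and for the 5 highest genes per kilobase. Lack of overlap in the comparison that named a gene thus follows from the rule. In GS against RCF, 10680 of all 14399 tested genes had no overlap, beside 48 of the 52 guidance genes. Partners with at least 5 CPM are given as means. Promoter windows come from RefSeq (GRCr8).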

Additional observations from a re-analysis of the deposited data

How the results depend on the processing

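The number of guidance genes higher in GS_diff1 than in GS went from 6 to 10 with library totals in place of TMM factors. That scaling moved the median log2 of all genes by less than 0.1 in every comparison, and every other count of higher or lower guidance genes stayed within 1.5 times under the alternatives run. With each library left out in turn, the genes higher and lower numbered 29 to 31 and 16 in GS against RCF, 6 to 8 and 30 to 32 in GS_diff1 against GS, 12 to 15 and 23 to 25 in GS_diff2 against GS, and 30 to 31 and 11 to 12 in GS_diff2 against GS_diff1. Same-numbered libraries of different groups showed little tendency to deviate together. Correlations were -0.045 to 0.0759 in 18 same-numbered pairs of libraries and -0.0753 to 0.0462 in 36 other pairs. A pairing that touches few genes could not be seen in correlations over all tested genes. With the replicate number as a block, 31 guidance genes were higher and 16 lower in GS against RCF, and no guidance gene lost, gained or turned a call in any of the 6 comparisons. Of 260 calls of a guidance gene in a comparison, 18 (14 genes) were lost under at least 1 alternative and none turned direction. A further 5 could not be compared in the fit of only the 2 groups compared, where the gene was below the count minimum. Sema3b in GS_diff2 against RCF was lost most often, in 8 settings (log2 -0.20 to -0.15, adjusted p = 0.0502 to 0.138). Plxnb3, Sema5b, Sema3a and Ntn3, all low in counts, also lost calls. Whether depth or variation between libraries limits them was not tested.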

Other observations

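The tested genes divide into 31 ligands (ephrins, Slits, netrins and semaphorins) and 21 receptors (Eph receptors, Robos and plexins), a division made after the values were seen and given as counts with no test. In GS against RCF, 19 ligands were higher and 9 lower, and 12 receptors were higher and 7 lower, beside 35.0% higher and 36.3% lower among all tested genes. In GS_diff1 against GS, 3 ligands were higher and 22 lower, and 3 receptors were higher and 10 lower, beside 32.0% and 32.3%. In GS_diff2 against GS, 10 ligands were higher and 13 lower, and 5 receptors were higher and 11 lower, beside 33.3% and 33.7%. In GS_diff2 against GS_diff1, 23 ligands were higher and 3 lower, while 9 receptors were higher and 9 lower, beside 32.1% and 31.5%. Whether ligands and receptors differ in these counts was not tested.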
